A study of Danio rerio with 8 samples.

Results

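The genes of antigen presentation by the major histocompatibility complex (MHC) were examined in zebrafish liver, in 6 genes measured by 15 of the 43603 probes on the array. Of 9 genes listed for this pathway, 6 were found by the accession that the array file gives each probe: *b2m*, *mhc1uba*, *tap2a*, *tapbp.1*, *cd74a* and *cd74b*. The other 3, *mhc1uka*, *mhc2dab* and *tap1*, had no probe matched by symbol and were left out. The genes were chosen by their pathway with the differences of each site array from the control array already known, so the values below are a description.

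Liver RNA was measured on Agilent one-colour zebrafish arrays in 8 groups with 1 array each. The RNA on an array came from 5 pooled livers of wild-type male fish from a commercial distributor, with an age of 3 months in the sample labels. The control fish were kept in aerated, carbon-filtered tap water. The other groups were kept for 96 h, without renewal, in filtered river water, taken at H1, H2, H3, H4 and H5 along the Hun River, at D on the Dongzhou River, a tributary of its upper reach that receives petroleum and chemical discharges, or at X on the Xi River, a tributary of its lower reach that receives domestic and pharmaceutical effluent. The labels of the D and X samples give 97 h in one field and 96 h in another. A pool of 5 fish of unstated relationship is 1 sample, so no difference between groups had a replicate check and no p-value was computed.

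MHC class I molecules are built from a polymorphic heavy chain and the invariant light chain beta-2-microglobulin, and show peptides from inside the cell to cytotoxic T cells. The peptides are cut by the proteasome, in immune cells and after interferon by its immunoproteasome form, carried into the endoplasmic reticulum by the TAP transporter and loaded with the help of tapasin. Class II molecules are made mainly by macrophages, dendritic cells and B cells, and their groove is held closed by the invariant chain CD74 until they reach the endosome. In zebrafish the class I heavy chain genes of the U lineage lie beside the tapasin, TAP and immunoproteasome genes, and fish with different haplotypes carry different versions and numbers of these genes. A probe for an MHC gene can therefore be bright in 1 pool and dim in another because the fish carry other alleles, and here an allele difference and a difference in the amount of transcript cannot be told apart.

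The share of spots well above background was between 56.5% (H2) and 70.8% (D), and no spot was saturated. Slide 1 held the control array beside H1, H2 and D, and the 4 remaining arrays shared slide 2, so for H3, H4, H5 and X the site and the slide cannot be told apart when they are set against the control. The labelled tissue was borne out by 8 hepatocyte genes, such as *fabp10a* and *serpina1*, whose 21 probes were well above background on all 8 arrays with summed signals between 2.55e+06 and 2.98e+06. Genes of exocrine pancreas, such as *prss1*, differed between the arrays, with a summed signal over 9 probes from 122638 (H3) to 1.09e+06 (control). Repeated spots of the same probe differed within an array with an SD of 0.128 to 0.317 on the log2 scale. From that the spread of a difference between 2 arrays was 0.31, which covers error within an array only. Of the 120 values of the 15 probes, 2 were not well above background, both of the third probe of *mhc1uba*.

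The values below are log2 signals after quantile normalization over the 8 arrays. A gene was called lower or higher when the mean over its probes differed at least 2 fold from the control, or 3 fold at D. These folds are taken from the methods, which asked for 2 fold in more than 1 set of arrays, whereas a single set was used here. For D the paper had 1 array, since a repeat RNA sample failed its quality check, and set 3 fold. In total 11 of the 42 values of a gene at a site were past this threshold, all of them lower than the control, and 37 of the 42 were below 0. All 42 share the same control array. Of all genes tested, 4891 of 10669 were below 0 at H1, 4858 of 10406 at H2 and 4727 of 10657 at H3. At H4 it was 5540 of 10869, at H5 5323 of 10622, at D 4776 of 11459 and at X 4644 of 10804. At H1, 3 of the 6 genes were called lower (*mhc1uba*, *tap2a* and *cd74b*), where 10.8% of all genes tested were. At H2 there were 2 (*mhc1uba* and *tap2a*; 5.18% of all genes), at H3 1 (*cd74b*; 12.6%), at H4 2 (*mhc1uba* and *tapbp.1*; 6.37%), at H5 1 (*mhc1uba*; 4.98%), at D 2 (*mhc1uba* and *tap2a*; 6.67%) and at X 0 (10.2%). None was called higher, where 7.61% of all genes were at H1, 3.14% at H2, 9.97% at H3, 9.12% at H4, 5.58% at H5, 4.82% at D and 6.61% at X. Nothing is read from these counts, since the genes were listed with the same differences in view. In RNA from whole liver, fewer cells of a type and less RNA per cell cannot be told apart.

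**Figure D1:**
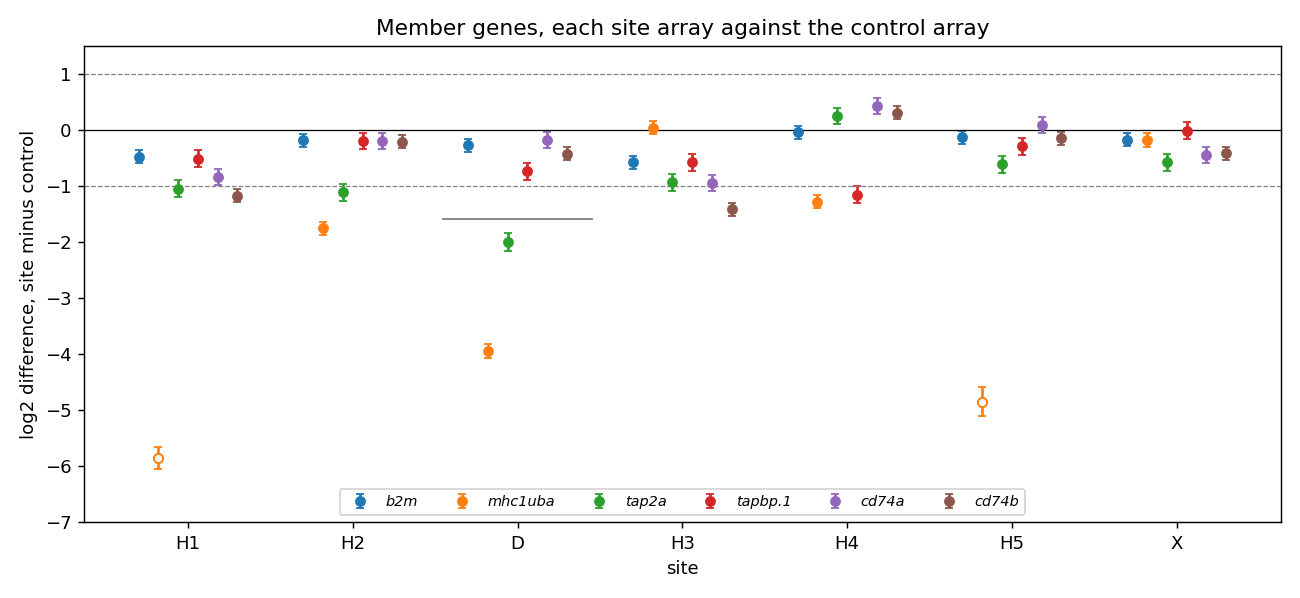
Log2 difference of each gene between a site array and the control array, as the mean over its probes, with bars for the error the scanner software gives its signals. Dashed lines mark 2 fold, the short grey line at D marks 3 fold, and open points include a probe not well above background. *mhc1uba* reached -5.86 at H1 and -4.85 at H5, both with a dim probe, and -3.94 at D, and the next lowest value was that of *tap2a* at D (-2.0).

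*mhc1uba*, a class I heavy chain gene of the U lineage, differed most between the arrays. As the mean of the probes well above background on both arrays, it was 25.4-fold lower than in the control at H1 and 7.02-fold lower at H5, each over 2 probes, and 15.4-fold lower at D over 3. It was 3.37-fold lower at H2, 2.43-fold lower at H4 and 1.13-fold lower at X, and 1.03-fold higher at H3. Probe 1 had a log2 signal of 12.30 in the control, 7.28 at H1, 10.89 at H2, 8.54 at D, 12.53 at H3, 10.88 at H4, 9.77 at H5 and 11.90 at X. The control, H3 and X were thus high, H2 and H4 stood between, and H5, D and H1 were low. Probe 2 had 12.38 in the control, 8.08 at H1, 10.36 at H2, 7.48 at D, 12.74 at H3, 11.17 at H4, 9.30 at H5 and 12.27 at X. These arrays fell in the same 3 sets, although here D rather than H1 was lowest. Probe 3 had 14.78 in the control, 6.54 at H1, 12.96 at H2, 11.61 at D, 14.31 at H3, 13.57 at H4, 5.85 at H5 and 14.75 at X.

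On probe 3 the H1 and H5 arrays were not well above background, so the difference is a bound: at least 272-fold lower at H1 and at least 240-fold lower at H5. A bound is the control's signal over the lowest signal of a probe well above background on the site's array, or over the probe's own signal where that was higher. The 3 probes did not order D and H5 alike. With probe 3, D (11.61) was far above H5 (5.85), whereas with probes 1 and 2 D (8.54 and 7.48) was below H5 (9.77 and 9.30). At H5 the fall from the control was 2.54 and 3.08 on the log2 scale with probes 1 and 2, against the bound of 240-fold with probe 3, so a single fold for the gene at H5 depends on the probe. With the dim values of probe 3 taken as measured, the mean over the 3 probes would be 58.0-fold lower at H1 and 28.8-fold lower at H5, and the order of H5 and D turns. Over the 8 arrays the signal spanned 38.2-fold with probe 1, 38.4-fold with probe 2 and at least 272-fold with probe 3. The control was the highest or second highest array with all 3 probes, and its own pool of 5 fish set how low the other sites appeared. Against the median of the 7 other arrays, *mhc1uba*, with dim values as measured, was at -4.58 at H1, -3.57 at H5 and -2.67 at D. It was at -0.47 at H2 and 0.47 at H4, where the call was lost. H2 and H4 were the middle arrays with each probe, so each was the other's reference. Both values are thus the same difference between H2 and H4.

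**Figure D2:**
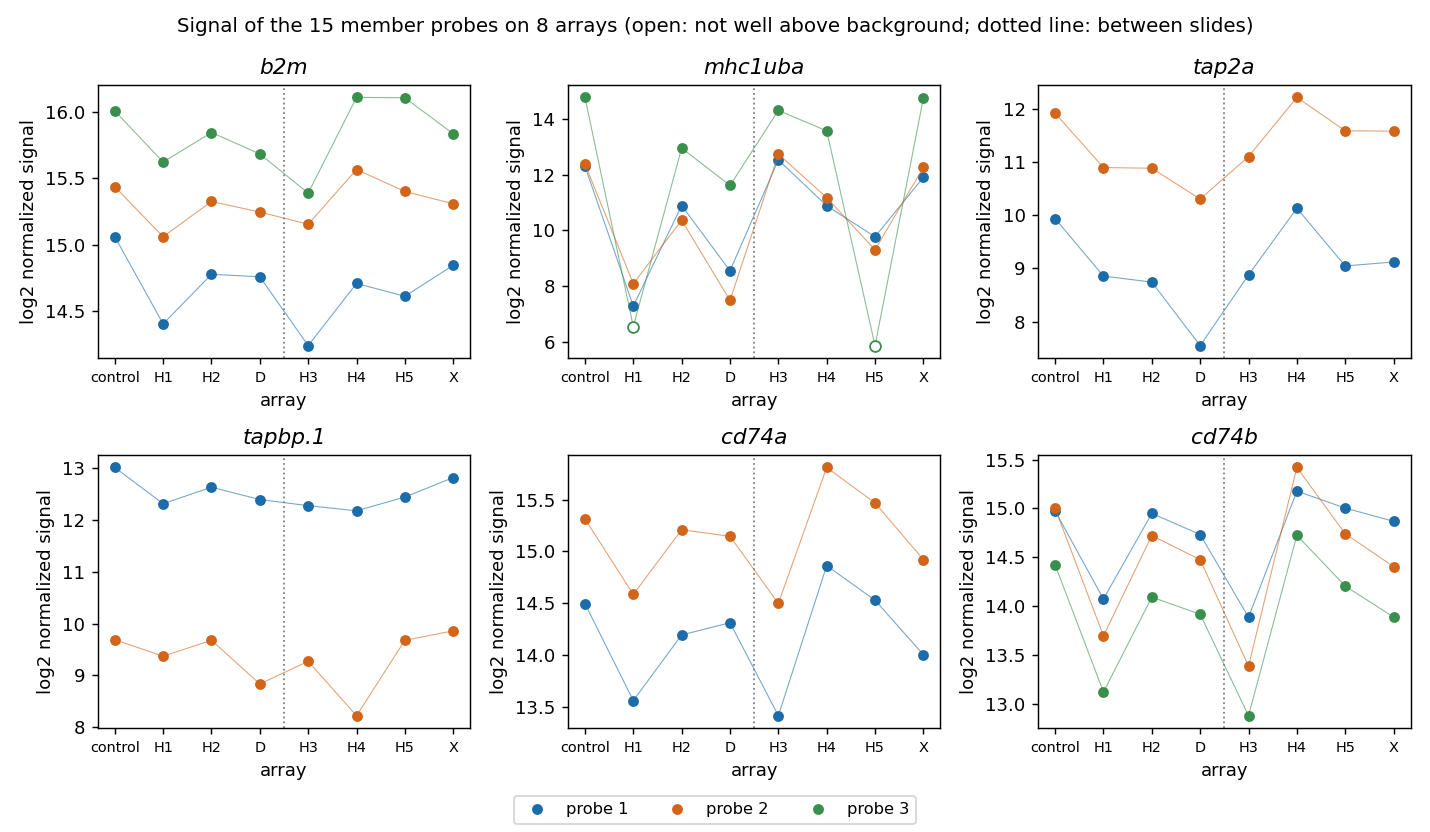
Normalized log2 signal (vertical axes, with a different range in each panel) of the 15 probes on the 8 arrays (horizontal axes), with slide 1 left and slide 2 right of the dotted line. *mhc1uba* spanned 38.2-fold or more with each probe, while the 3 *b2m* probes stayed within 1.77-fold.

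*b2m*, which encodes the light chain of class I molecules, did not show that pattern. Its probe 1 had 15.06 in the control, 14.40 at H1, 14.78 at H2, 14.76 at D, 14.24 at H3, 14.71 at H4, 14.61 at H5 and 14.84 at X. Probes 2 and 3 ranged from 15.06 (H1) to 15.57 (H4) and from 15.39 (H3) to 16.11 (H4), and probe 3 matches another transcript of the gene than probes 1 and 2. H1 and H3 were the lowest arrays with each probe, at 0.47 and 0.58 below the control as the mean of the 3. The difference was 0.19 or less in size at H2, H4, H5 and X and -0.27 at D. After scaling to the 75th percentile the order was another one, with H1 lowest (-0.59), H4, H3 and H5 between -0.43 and -0.39, H2 at -0.22, X at 0.05 and D at 0.25. At H5, where *mhc1uba* was lower by 2.54 and 3.08 with probes 1 and 2, *b2m* differed by -0.13 or, with that scaling, by -0.39.

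*tap2a*, a subunit of the peptide transporter, was lower than the control at 6 of the 7 sites. Probe 1 had 9.94 in the control, 8.85 at H1, 8.74 at H2, 7.55 at D, 8.88 at H3, 10.13 at H4, 9.05 at H5 and 9.12 at X. Probe 2 had 11.92, 10.90, 10.88, 10.30, 11.10, 12.22, 11.59 and 11.58 on the same arrays. Both probes placed D lowest and H4 highest. The gene was 4.0-fold lower at D, 2.16-fold at H2 and 2.07-fold at H1. At H3 it was 1.91-fold lower, with probe 1 past 2 fold and probe 2 not. The differences at H1 and H2, -1.05 and -1.11, lie close to the threshold, and with another background correction (normexp) *tap2a* was past the threshold at none of the 3 sites (-0.88 at H1, -0.96 at H2 and -1.58 at D). Nor was it against the median of the 7 other arrays (-0.44 at H1, -0.50 at H2 and -1.39 at D).

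*tapbp.1* encodes a tapasin, which holds class I molecules at the TAP transporter. Its probe 1 had 13.02 in the control, 12.32 at H1, 12.64 at H2, 12.40 at D, 12.28 at H3, 12.18 at H4, 12.45 at H5 and 12.82 at X. Probe 2 had 9.69, 9.37, 9.68, 8.84, 9.27, 8.22, 9.68 and 9.86. Both probes were lowest on the H4 array. There the gene was 2.22-fold lower than in the control, 1.79-fold with probe 1 and 2.77-fold with probe 2, and the value with normexp, -0.93, was not past the threshold. The value against the median of the 7 other arrays, -0.86, was not past it either. At D the gene was 1.67-fold lower than in the control, and at the other sites between 1.01-fold and 1.49-fold lower.

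*cd74a* and *cd74b* encode the invariant chain of class II molecules, and their order over the arrays was another one. *cd74a* probe 1 had 14.49 in the control, 13.56 at H1, 14.19 at H2, 14.31 at D, 13.41 at H3, 14.86 at H4, 14.53 at H5 and 14.00 at X. Its probe 2 had 15.31, 14.58, 15.21, 15.15, 14.50, 15.81, 15.47 and 14.92. With both, H3 and H1 were low and H4 was highest. *cd74b* probe 3 had 14.42 in the control, 13.12 at H1, 14.09 at H2, 13.92 at D, 12.88 at H3, 14.73 at H4, 14.21 at H5 and 13.89 at X, and probes 1 and 2 also placed H3 lowest, H1 next and H4 highest. *cd74b* was 2.67-fold lower than in the control at H3 and 2.25-fold lower at H1, and against the median of the 7 other arrays it stayed past the threshold at H3 (-1.21) but not at H1 (-0.96). *cd74a* was 1.93-fold and 1.78-fold lower at these sites, which does not reach the threshold. At H4 the differences were 0.43 for *cd74a* and 0.31 for *cd74b*, and at H2, H5, D and X all were between -0.44 and 0.09. The low values at H1 and H3 were kept after scaling to the 75th percentile, at -0.90 and -0.83 for *cd74a* and -1.23 and -1.33 for *cd74b*, but the place of H4 was not: there *cd74a* was then at 0.05, below D (0.27), and *cd74b* at -0.09, below the control and D (-0.04). That scaling moved the median of all genes from -0.01 to -0.12 at H4 and from 0.15 to 0.34 at D, and by less than 0.10 at the other sites.

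A list of 8 genes that mark leukocytes in general, of which 7 had a probe, was high and low on similar arrays when summed. Among its most abundant genes, *laptm5* and *rac2* were lowest at H3 and highest at H4. *cxcr4b* was lowest at X and highest at D (0.37), and was at -0.94 at H4. All 12 probes of the list were well above background on every array. Their summed signal was 13013 at H3, 20266 at H1, 24857 at X and 31006 at H5. It was 31389 at H2, 42774 in the control, 44178 at D and 53164 at H4. At H3, 6 of the 7 genes were at least 2 fold lower than in the control, where 12.6% of all genes tested were. Their median was -1.54 against 0.08 over all genes. At H1 4 of the 7 were lower, where 10.8% of all genes were, with a median of -1.01 against 0.05. At H4 none was past 2 fold either way, where 6.37% of all genes were lower and 9.12% higher. The median there was 0.30 against -0.01. After scaling to the 75th percentile these medians were -1.59, -1.04 and 0.17. The macrophage list (8 of 10 genes with a probe) had its lowest sum at H3 (47293) and its highest at D (136219), but at H1 its sum (108898) was above that of the control (95972), and the T and NK cell list (8 of 9) ranged from 2529 (H3) to 4794 (control). Of the B cell list 3 of 6 genes had a probe, and 1 to 4 of their 4 probes were well above background on an array, with a sum of 2064 at H1 against 486 in the control and at most 631 elsewhere. Only 1 gene of the B cell list was tested at H1. *cd22* was at 1.85 there with the probe well above background on all arrays. The neutrophil list (5 of 6) had its lowest sum at H2 (17297) and its highest at D (33778). Its sum was 23993 at H1 against 21803 in the control. The leukocyte lists were thus not all low at H1. The part of these cells in the differences of *cd74a* and *cd74b* was not tested. The pancreas genes were also lowest at H3 (122638) and second lowest at H1 (262057), and their part was not tested either. Genes of other organs also differed: the testis list (5 genes, 7 probes) had a sum of 682 in the control, 29961 at H4, 13598 at H5 and 9137 at H3, and the intestine list (4 genes, 8 probes) had 384332 in the control and 124983 at D. *fabp2*, a fatty acid binding protein of the intestine, was at -7.0 at D, -4.69 at X and -4.20 at H3. The part of these tissues in the differences of the 6 genes was not tested.

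**Figure D3:**
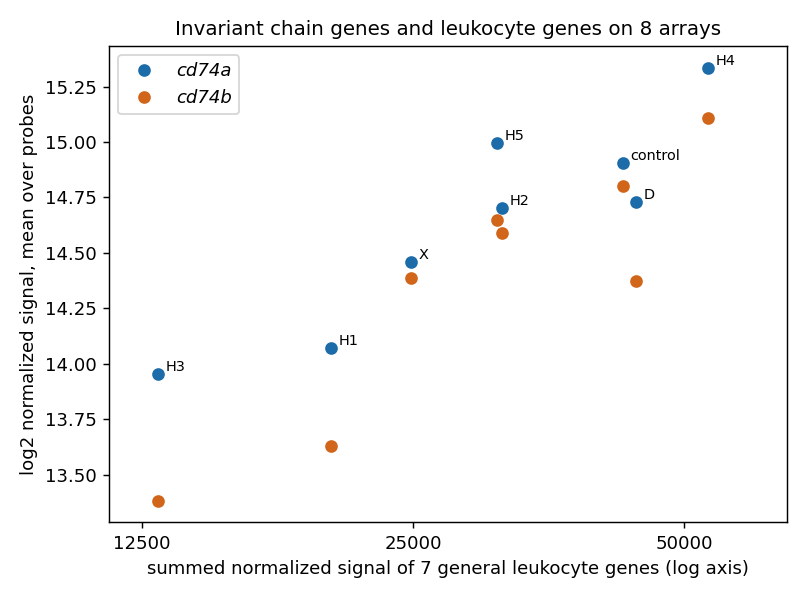
Mean log2 signal of *cd74a* and *cd74b* (vertical axis) against the summed signal of 7 general leukocyte genes (horizontal log axis), with 1 point per gene and array. H3 and H1 lie low on both axes and H4 lies high on both. The D array has a leukocyte sum of 44178, near the control's 42774, with *cd74b* at 14.38 against 14.80.

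Over the 8 arrays *b2m* varied more like the invariant chain genes than like *mhc1uba*. Pearson's r of *b2m* was 0.97 with *cd74b*, 0.90 with *cd74a* and 0.21 with *mhc1uba*. *mhc1uba* had an r of 0.59 with *tap2a*, 0.31 with *tapbp.1*, 0.12 with *cd74b* and 0.02 with *cd74a*. *cd74a* and *cd74b* had 0.97 with each other. After scaling to the 75th percentile the r of *b2m* was 0.65 with *cd74b*, 0.66 with *cd74a* and 0.13 with *mhc1uba*, and that of *cd74a* with *cd74b* was 0.95. These values describe 8 arrays that share their normalization, and no test was made of them.

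In the annotation *mhc1uba* lies in a run of 9 protein-coding genes between *daxx* and *brd2a*, and 7 of these had a probe. Besides *tapbp.1*, *tap2a* and *mhc1uba* they were *tapbp.2*, a second tapasin gene, and *psmb13a*, *psmb12* and *psmb9a*, which encode proteasome beta subunits. At H1, H2 and D all 7 were below the control, and 4, 3 and 5 of them at least 2 fold, where 10.8%, 5.18% and 12.3% of all genes tested were. Of all genes tested, 4891 of 10669 were below the control at H1, 4858 of 10406 at H2 and 4776 of 11459 at D. At H5 6 of 7 were below the control, where 5323 of 10622 genes tested were. There *mhc1uba* alone was at least 2 fold lower (4.98% of all genes were). At H3 6 of 7 were below the control too, where 4727 of 10657 genes tested were, and 3 at least 2 fold (12.6%). These were *psmb13a* (-1.70), *psmb9a* (-1.48) and *psmb12* (-1.28). *tap2a* was at -0.94, *tapbp.1* at -0.58 and *tapbp.2* at -0.42, while *mhc1uba* was at 0.04. At X 6 of 7 were below (4644 of 10804 genes were) and 0 at least 2 fold (10.2%). At H4 the run split. *mhc1uba*, *tapbp.1* (-1.15) and *tapbp.2* (-1.16) were at least 2 fold lower there (6.37% of all genes were). *tap2a*, *psmb13a*, *psmb12* and *psmb9a* were between 0.15 and 0.40. Some of the small values turned after scaling to the 75th percentile, *psmb9a* to -0.13 at H4 and *psmb12* from -0.10 to 0.06 at D. The genes at either end, *daxx* and *brd2a*, ranged from -0.48 to 0.67 and from -0.05 to 0.85. Neighbouring genes of this kind are inherited together, and here too alleles and transcript amounts cannot be told apart.

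**Figure D4:**
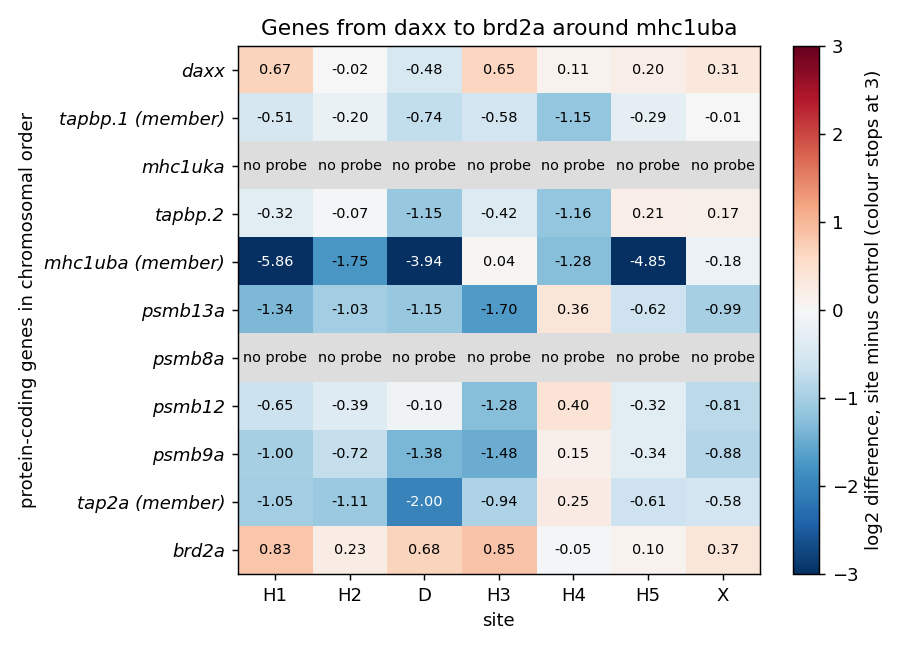
Log2 difference between each site array and the control array (colour and printed value) for the genes from *daxx* to *brd2a* in their order on the chromosome. *tapbp.1* was lowest at H4 (-1.15), and *tapbp.2* was at -1.16 at H4 and -1.15 at D. The proteasome genes *psmb13a*, *psmb12* and *psmb9a* were lowest at H3 (-1.70, -1.28 and -1.48) and *tap2a* at D (-2.0).

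The immunoproteasome genes form 1 of the lists set beside the 6 genes, with 7 of 12 measured. At H3 4 of the 7 were at least 2 fold lower and none higher, where 12.6% and 9.97% of all genes tested were. The median was -1.28 against 0.08 over all genes. *psmb10*, a subunit of the immunoproteasome in mammals, was at -1.95 at H3 and -1.38 at X. At D 4 of the 7 were at least 2 fold lower (12.3% of all genes were), with a median of -1.15 against 0.15, and besides *psmb13a* and *psmb9a* these were the proteasome activator genes *psme1* (-1.29) and *psme2* (-1.44), which were named after their values were seen. H1 had 2 of the 7 at least 2 fold lower (10.8% of all genes were), H2 1 (5.18%), X 1 (10.2%), H4 0 (6.37%) and H5 0 (4.98%). The medians were -0.65 at H1, -0.39 at H2, -0.81 at X, -0.18 at H5 and 0.12 at H4, the last turning to -0.13 after scaling to the 75th percentile.

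Of the peptide loading list, without *tap2a* and *tapbp.1*, 8 of 17 genes were measured. All 8 were below the control at H1, H2 and H4, where 4891 of 10669, 4858 of 10406 and 5540 of 10869 genes tested were. At these sites 1, 0 and 1 of the 8 were at least 2 fold lower, where 10.8%, 5.18% and 6.37% of all genes were. At D 5 of the 8 were below the control, where 4776 of 11459 genes tested were. There 2 of the 8 were at least 2 fold lower (12.3% of all genes were). At H3 and X 4 each were below the control, and at H5 3. At these sites 4727 of 10657, 4644 of 10804 and 5323 of 10622 genes tested were. *erap2*, an aminopeptidase that trims peptides in the endoplasmic reticulum in mammals, was highest in the control with its brighter probe and differed by -2.05 at D, -1.63 at H3 and -1.53 at H1. The second probe was dim in the control and differed by 1.62 at D, so the mean of both there, -0.22, was not past 2 fold. *calr*, the chaperone calreticulin, was at -1.59 at D and -0.89 at H4 but at 0.56 at H3, and *calr3b* ranged from -0.59 (H4) to 0.79 (H5). The list had medians of -0.54 at H1 and at H4, -0.44 at H2, 0.22 at H5 and -0.11 at D, the last turning to 0.18 after scaling to the 75th percentile.

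Other MHC genes were measured in part: 6 of the 21 class I heavy chain genes and 5 of the 13 class II chain genes of the annotation had a probe by symbol. A further 8262 probes carry an Ensembl accession with no symbol in the table used. In all, 26094 of the 43603 probes had a symbol, so other unmatched probes remain as well. *b2ml*, a gene related to *b2m*, was lower at D by 1.58 as the mean of 4 probes, each between -1.39 and -1.69, where *b2m* itself differed by -0.27. At the other sites *b2ml* was between -0.56 and 0.09. *mhc1laa*, a class I gene of the L lineage, was higher than in the control at H1 (1.89), H2 (1.46) and H3 (1.04) and at -0.83 at D. It had 1 probe, with a control signal of 7.49. Of the Z lineage, *mhc1zea* was higher at H1 (1.84) and H3 (1.55), and *mhc1zca* at D (1.23) and X (1.1), each with 1 probe. Their control signals were 7.24 and 7.98. *mhc1zba*, at 13.45 in the control over 3 probes, was at -0.61 at H1, -0.54 at H3 and -0.88 at D. It was between -0.27 and 0.11 elsewhere. *mhc1zda* was at -1.02 at D and between -0.07 and 0.58 elsewhere. Both were named after their values were seen. Of the other 6 class I genes measured, *b2ml* included, 5 were below the control at D, where 4776 of 11459 genes tested were. The median of the 6 there was -0.86 against 0.15 over all genes.

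The class II beta chain gene *mhc2d8.35b2* was lower at D and X, where *cd74a* and *cd74b* were not past the threshold. Its probe 1 had 14.30 in the control, 13.45 at H1, 14.83 at H2, 11.10 at D, 15.17 at H3, 13.33 at H4, 14.93 at H5 and 11.86 at X. Probe 3 had 14.95, 14.23, 15.53, 11.63, 15.72, 13.93, 15.55 and 12.30 on the same arrays. Both were highest on H3, the array with the lowest *cd74a* and *cd74b*. Probe 2 was much dimmer, between 7.48 (X) and 9.08 (D), and differed by 0.51 at D, so the probes of this gene do not agree. *mhc2dgb*, another class II beta chain gene and named after its values were seen, was well above background with both probes in the control (9.64 and 9.61), H2 (10.61 and 9.91), H4 (11.01 and 10.32) and H5 (10.77 and 10.12). It was not well above background with either probe at H1, H3 and D, where it was lower than in the control by at least 7.57-fold, 6.30-fold and 15.6-fold with probe 2. At X probe 1 was not well above background and probe 2 was at 7.0. *mhc2dhb*, also named after its values were seen, went the other way. Its probe was dim in the control, and it was at least 3.08-fold higher at H5, 2.03-fold at X and 1.72-fold at H4. At H1, H2, H3 and D it was dim as well. *mhc2dbb*, named in the same way, was well above background at D alone. For *mhc2d8.35b2*, *mhc2dgb* and *mhc2dhb* too, the alleles of a pool and the amount of transcript cannot be told apart.

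**Figure D5:**
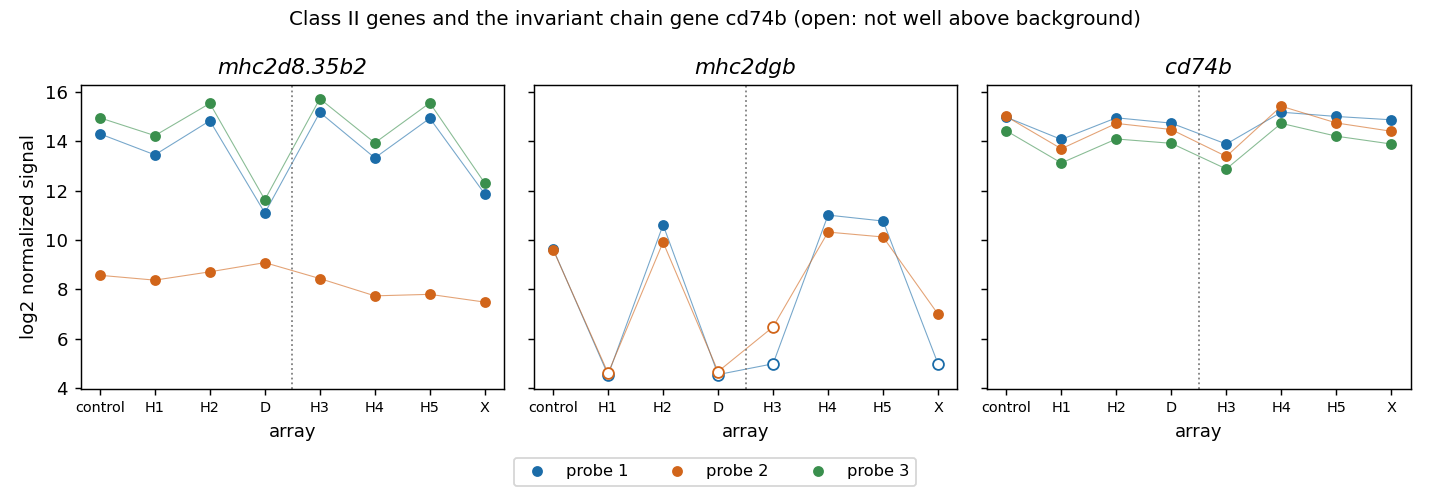
Normalized log2 signal (vertical axis) of the probes of *mhc2d8.35b2*, *mhc2dgb* and *cd74b* on the 8 arrays (horizontal axis). *mhc2d8.35b2* was low at D and X with probes 1 and 3, *mhc2dgb* was bright in the control, H2, H4 and H5, and the *cd74b* probes were lowest at H3 and, with this normalization, highest at H4.

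Proteases and other genes of class II processing were measured for 9 of the 13 genes on the list. *ctsh*, the protease cathepsin H, was lowest at H3 (-1.01) and highest at H4 (0.29, or -0.05 after scaling to the 75th percentile), and *ctss2.1*, a cathepsin S gene, was also lowest at H3 (-1.07) and highest at H4 (0.61). *ctsla*, a cathepsin L gene, was lowest in the control and higher at H1 (1.93), H3 (1.54) and X (1.01). *lgmn*, the protease legumain, was higher at H4 (1.05, or 0.74 and not past 2 fold after scaling to the 75th percentile) and between -0.72 and 0.13 elsewhere. At H3 3 of the 8 genes tested were at least 2 fold lower and 1 higher, where 12.6% of all genes were lower and 9.97% higher, with a median of -0.27 against 0.08 over all genes. At H4 1 was higher and none lower, where 9.12% and 6.37% of all genes were, with a median of 0.45 against -0.01. After scaling to the 75th percentile the median at H4 was 0.16 against -0.12.

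Among the transcription factors that act on MHC genes in mammals, 9 of 14 were measured. *stat1b*, a transducer of interferon signals, had a log2 signal with its brighter probe of 13.77 in the control, 11.47 at H1, 13.47 at H2, 10.52 at D, 9.33 at H3, 13.24 at H4, 12.98 at H5 and 12.28 at X. H3, D and H1 were low, with differences of -4.44, -3.24 and -2.29 from the control. Its second probe was not well above background on these 3 arrays, at least 2.87-fold, 7.08-fold and 3.45-fold below the control. *stat1a* was lowest at H4, with a difference of -2.02. *tapbp.1* was also lowest at H4, but *tapbp.2* was at -1.16 there and at -1.15 at D. *irf8*, a factor of macrophages and dendritic cells, was at -0.82 at H3 and 0.48 at H4, and *irf2a* between -0.77 (D) and 0.58 (H1). Of the interferon response list, 19 of 28 genes had a probe and 16 to 18 were tested at a site. At D 8 of 16 were at least 2 fold lower, where 12.3% of all genes were, with a median of -0.97 against 0.15 over all genes. At H3 it was 5 of 16, where 12.6% of all genes were, with a median of -0.48 against 0.08. At H1 it was 3 of 16 (10.8% of all genes), at H4 2 of 18 (6.37%), at H5 1 of 16 (4.98%) and at X 1 of 16 (10.2%). The medians at H1, H4, H5 and X were -0.30, -0.39, -0.53 and -0.14, against 0.05, -0.01, -0.002 and 0.09 over all genes. *isg15*, a ubiquitin-like protein induced by interferon, was at -2.09 at H3 and 0.75 at H2, and *ifit8* at -2.0 at D. *stat2* had a mean of -1.76 at D, but its probes did not agree there: probe 2 was at -3.75 and probe 3 at 0.22. *dhx58*, a sensor of viral RNA, was at 1.23 at H2, 1.08 at H4 and 1.06 at H3. At H2 the list had a median of 0.05, with 0 of 16 at least 2 fold lower and 1 higher, where 5.18% and 3.14% of all genes were. *mhc1uba* and *tap2a* were called lower at H2, and a link with the interferon genes was not tested.

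The array was searched for the genes that varied over the 8 arrays most like the 4 class I genes or like *cd74a* and *cd74b*. Likeness was Pearson's r with the mean log2 values of each group. It was computed for 2320 genes well above background on all arrays with an SD of at least 0.5. The mean of the class I genes was taken over log2 values not scaled to an equal spread, and without probe 3 of *mhc1uba*. *mhc1uba*, which differed most between the arrays, therefore weighs most in it. Most like this mean were *cav2* (r = 0.94), which encodes a caveolin, *hoxc11a* (0.91), *epb41b* (0.87), *ckap2l* (0.84) and *zgc:64065* (0.84). *cav2* was at -1.79 at H1, -1.66 at D and -1.38 at H5, and within 0.10 of the control at H3 and X. Most like the mean of *cd74a* and *cd74b* were *myh11a* (0.98), the smooth muscle myosin heavy chain, *nasp* (0.98), a histone chaperone, *dub* (0.98), *ctrb.3* (0.97), a chymotrypsinogen of the exocrine pancreas, and *sulf2b* (0.97). *myh11a* was at -2.41 at H1, -2.39 at H3 and 0.69 at H4. After scaling to the 75th percentile r was 0.95 for *cav2*, 0.92 for *hoxc11a*, 0.83 for *epb41b*, 0.86 for *ckap2l* and 0.74 for *zgc:64065*. It was then 0.89 for *myh11a*, 0.89 for *nasp*, 0.91 for *dub*, 0.94 for *ctrb.3* and 0.84 for *sulf2b*. These genes were picked as the highest of 2320 over 8 arrays, and no test was made of their r.

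The control was left out by comparing pairs of sites on the same slide. D was set against H2, the Hun River site below the junction with the Dongzhou River. *mhc1uba* was 4.57-fold lower at D than at H2, with log2 differences of -2.35, -2.88 and -1.35 for its 3 probes, and the other 5 genes were not past 2 fold (*tap2a* -0.89), where 11.3% of all genes were lower and 14.1% higher. X was set against H5. *mhc1uba* was higher at X by 2.14 and 2.97 with probes 1 and 2 and at least 236-fold with probe 3, and the other 5 genes were within 0.54, where 8.49% of all genes were higher and 11.3% lower. H3 was set against H4. Here *mhc1uba* was 2.5-fold higher at H3 (11.4% of all genes were higher), with probe 3 at 0.74 and so not past 2 fold, and *tap2a*, *cd74a* and *cd74b* were 2.27-fold, 2.60-fold and 3.30-fold lower (17.3% were lower). After scaling to the 75th percentile *cd74a*, at -0.88, was no longer past 2 fold, while *tap2a* (-1.13) and *cd74b* (-1.25) were. *b2m* (-0.54, or 0.03 with that scaling) and *tapbp.1* (0.58) were not past 2 fold between H3 and H4.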

How the data were processed

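RNA of 8 liver pools, each of 5 fish, was hybridized to 1 one-colour Agilent array per group. The authors scanned the arrays with Agilent Feature Extraction (10.7 in the labels, 11.5.1.1 in the file headers) and deposited the fluorescence intensity of each spot after background subtraction, the median spot and background intensity, and marks for spots above background, saturated or non-uniform. The authors also deposited log2 values, which are the log2 of that intensity less a constant for each array, close to the array's 75th percentile, within 0.01 for at least 99.97% of spots on each array, whereas the methods name quantile normalization. The paper's repeat arrays were not used here.

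Processed signals were quantile normalized over the 8 arrays without control spots, and repeated spots were averaged. A probe was left out of a comparison where at least 50% of its spots were marked. It was also left out where it was well above background on neither array. Genes are means over their probes. Single genes named from the lists, and genes in the correlations, are means over probes well above background on all 8 arrays, unless stated otherwise. Gene symbols came from the probe accessions through RefSeq (GRCz12tu), which named 26094 probes of 13443 genes. Where a probe was dim on 1 array, the fold is a bound. With 1 array per group no test was made, and the number of arrays limits the precision. Depth, as the share of spots above background, is given in the report.

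The members, gene lists and tests were chosen with earlier results of these data known. Named genes are the members, up to 4 genes per pathway list with the widest range over the arrays, up to 3 of the most abundant genes per cell type list, and the 5 genes most like each group of members. Others are said to have been named after their values were seen. Alternatives were scaling to the 75th percentile, the authors' values, normexp (offset 50, run on the median spot and background intensity), other filters and references, the median over probes, and thresholds of 2 or 3 fold throughout. Python 3.11.15, numpy 2.4.6, pandas 2.3.3, R 4.3.3 and limma 3.58.1 were used, and the comparison was tested on simulated data.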

Additional observations from a re-analysis of the deposited data

Results flagged for a closer look

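*mhc2dgb*, a class II beta chain gene, went past 2 fold in opposite directions at different sites as the mean over its 2 probes. The mean was 1.04 at H4, with probe 1 at 1.37 and probe 2 at 0.71 and so not past 2 fold. At H1 the mean was -5.06, but neither probe was well above background. There the bounds were at least 7.71-fold lower with probe 1 and 7.57-fold with probe 2. Alleles and transcript amounts cannot be told apart here either. The difference between these sites was not tested, since each has 1 array.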

How the results depend on the processing

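After scaling to the 75th percentile, and in the authors' own values, all 11 calls of the 6 genes were kept and 37 of 42 values kept their sign. The values that turned were those of *cd74b* at H4 (0.31 to -0.09), *cd74a* at H5 (0.09 to -0.14) and D (-0.18 to 0.27), and *b2m* at D (-0.27 to 0.25) and X (-0.17 to 0.05), and between H3 and H4 *cd74a* lost its call (-0.88). With probes well above background on both arrays, *mhc1uba* was at -4.67 at H1 and -2.81 at H5 in place of -5.86 and -4.85, and at 2.55 at X against H5. All 11 were also kept with both dim filters, with marked spots, with the median over probes and with 2 fold throughout. With normexp 7 of the 11 calls were kept, leaving 1 gene lower at each of H2, H4 and D: *tap2a* was then at -0.96 at H2, -0.88 at H1 and -1.58 at D, and *tapbp.1* at -0.93 at H4. After centring on the slide 11 calls were kept and 5 gained, giving 3 genes lower at H3, 2 at H5 and 2 at X. Set against the median of the 7 other arrays, 4 of the 11 calls were kept: 1 gene was lower at H1, 0 at H2, 0 at H4 and 1 at D, 1 was higher at H3 (*mhc1uba*, 1.79), 1 at H4 (*tap2a*, 1.18) and 1 at X (*mhc1uba*, 1.57), and *mhc1uba* at H4 reversed to 0.47. That value at H4 is the difference from H2, which was the median of the other arrays with each probe. At H1, H5 and D *mhc1uba* stayed lower under the same kind of reference, at -4.58, -3.57 and -2.67. The causes were not tested. With 3 fold throughout, 1 gene was lower at H1, 1 at H2, 0 at H3 and 0 at H4. The 75th percentile scaling of gene lists, neighbouring genes and correlations, and normalizing without D, were chosen after seeing the data. The normalization without D kept all 9 calls at the other sites. No paired analysis was possible because every group has 1 array and shares only the replicate number 1. With 1 array per group, the spread between fish or exposures is unknown, and a signal near background limits the fold of dim probes.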
